A study of Mus musculus with 12 samples.

Results

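The axon guidance genes are the ligands that steer growing axons and the receptors that read them, and 64 of them were measured in the sensory epithelium of the newborn mouse cochlea. They were chosen by symbol as the semaphorins of classes 3 to 7, plexins, neuropilins, ephrins, Eph receptors, netrins, Dcc, Unc5 receptors, Slits and Robo receptors. Of the 68 genes with such a symbol among 27755 entries, 64 had a mean of at least 10 normalized counts over the 11 libraries, and 18400 genes in all reached that mean. The 4 left out were Epha10 with a mean of 9.64, Sema3g with 5.27, Epha6 with 3.36 and Robo3 with 2.73. The least abundant gene that was kept, Robo4, had a mean of 12.7, so Epha10 and Robo4 lie just outside and just inside the limit.

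All pups carried 1 floxed allele of exon 3 of the β-catenin gene (β-catenin-flox(Exon3)/+) on a mixed C57BL/6 and CD1 strain, and all received tamoxifen through the milk of mothers injected with 100 μl at 50 μg/μl. Treated pups also carried Sox2-CreER/+, so that exon 3 was cut out and β-catenin stabilized in cells expressing Sox2, whereas untreated littermates lacked Cre. P1 pups were exposed from postnatal day 1 and collected 72 hours later at day 4. P4 pups were exposed from day 4 and collected at day 7, so the names P1 and P4 give the day of tamoxifen. Each library was made from the 2 cochleae of 1 pup, after the sensory epithelium had been separated from mesenchyme and neurons, which makes the replicates biological. The P1 groups and the P4 untreated group had 3 libraries each. The P4 treated group had 2, numbered 1 and 3, and its number 2 was not analysed here.

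Semaphorins signal through plexins, with neuropilins as co-receptors for the secreted class 3, and ephrins signal through Eph receptor tyrosine kinases on neighbouring cells, which can also send a signal back through the ephrin. Netrins attract axons through DCC and repel them through Unc5 receptors, and Slits repel through Robo receptors. In the developing cochlea these families are known for guiding the neurites of spiral ganglion neurons to the hair cells. Many of them are made by epithelial, mesenchymal and vascular cells as well, where they act in adhesion, tissue boundaries and vessel growth.

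The library sums of normalized counts were 41.23 to 44.15 M, of which the 64 genes took 0.275 to 0.385%. Ctnnb1, the targeted gene, was at 24107 to 25048 in P1 treated, 19820 to 25308 in P1 untreated, 28951 to 31167 in P4 treated and 25724 to 30429 in P4 untreated libraries. A count over the whole gene cannot show whether exon 3 was removed. Sox2, the gene into which CreER was inserted, was at 4930 to 6006 in P1 treated and 8042 to 10170 in P1 untreated libraries, and at 7577 to 7993 in P4 treated and 10101 to 10485 in P4 untreated ones. The Cre allele, the level of Sox2 and stabilized β-catenin cannot be told apart in the treated groups. The long noncoding RNA Xist, which is made from the inactive X chromosome, was at 13 to 26 in the P1 treated and at 32 to 39 in the P4 untreated libraries, and at 3268 to 4180 in the P4 treated ones. Among P1 untreated libraries it was at 16 in replicate 1 and at 3030 and 2794 in the other two. So sex cannot be told apart from age among the treated pups, nor from treatment at P4. Between treated and untreated pups at P1, and between the untreated ages, sex was unbalanced, since only the P1 untreated libraries were mixed in Xist. Of the genes described here, 3 lie on the X chromosome (Efnb1, Plxna3 and Plxnb3). None of the 11 hair cell markers and none of the 11 supporting cell markers was at 0 in all libraries of a group. Markers of other cells were not at 0 either, so this check cannot set the labelled tissue apart from others. The sum of 12 neuronal markers was 13378 to 22532, that of 10 mesenchymal markers was 38960 to 116424 and that of 10 endothelial and pericyte markers was 1623 to 8547.

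Upstream sequences are shown for Ntn4 and Epha7, which moved most clearly with age in opposite directions, and for Sema3e, whose upstream sequence holds the core of the TCF/LEF site through which β-catenin acts. The sequences are the 250 bases before the RefSeq start on GRCm38.p6, all on the plus strand, 5′ to 3′. Capitals mark CTTTGA or its complement TCAAAG, the core of the TCF/LEF site, and GGGCGG or its complement CCGCCC, the GC box.
Ntn4, chr10:93640799-93641048: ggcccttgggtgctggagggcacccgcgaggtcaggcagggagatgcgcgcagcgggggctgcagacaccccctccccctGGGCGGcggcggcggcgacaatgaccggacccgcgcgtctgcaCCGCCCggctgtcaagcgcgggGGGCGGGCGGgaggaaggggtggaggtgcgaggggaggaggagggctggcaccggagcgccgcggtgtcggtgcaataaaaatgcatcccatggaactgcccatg
Epha7, chr4:28812881-28813130: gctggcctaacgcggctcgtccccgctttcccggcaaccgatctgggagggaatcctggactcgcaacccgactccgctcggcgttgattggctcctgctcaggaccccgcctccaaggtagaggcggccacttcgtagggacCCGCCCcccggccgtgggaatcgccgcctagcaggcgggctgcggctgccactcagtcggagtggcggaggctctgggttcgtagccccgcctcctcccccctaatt
Sema3e, chr5:14025026-14025275: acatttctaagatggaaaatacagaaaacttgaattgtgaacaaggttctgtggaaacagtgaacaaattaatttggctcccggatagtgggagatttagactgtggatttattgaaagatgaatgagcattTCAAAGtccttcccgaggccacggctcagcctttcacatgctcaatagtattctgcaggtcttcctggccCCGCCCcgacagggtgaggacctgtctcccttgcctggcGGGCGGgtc
The Ntn4 window lies within the gene as GENCODE draws it but outside annotated exons, and the other two overlap no annotated exon. The Ntn4 sequence held 4 matches to the GC box, which overlap in part, and none to the TCF/LEF core. The Epha7 sequence held 1 GC box and no TCF/LEF core, and the Sema3e sequence held 2 GC boxes and 1 TCF/LEF core. RefSeq windows were matched for 54 of the 64 genes, with 70 windows in all since some genes have several starts. The TCF/LEF core was found on either strand in 4 of the 70 windows (5.71%), namely of Epha2, Nrp2, Robo4 and Sema3e, against 13.8% of the 32851 windows of all genes. The GC box was found in 48 of the 70 windows (68.6%) against 32.7% of all windows. The median share of G and C was 64.4% in the windows of the 64 genes and 52.4% in all windows. These are matches of letters, not sites known to be bound.

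Per kb of exon, the most abundant gene in the P1 untreated libraries was Efna1, a membrane-anchored ephrin, with a mean of 1991 normalized counts per kb. It was followed by the receptor Epha7 with 1560, the plexin Plxnb2 with 1309, the receptor Ephb4 with 1212 and the secreted semaphorin Sema3f with 1193. The leading genes of the other families were lower on the same scale. Ntn4, the netrin best known as a basement membrane protein that binds laminin, had 686, Slit3 had 401, Robo1 had 300.2, Nrp2 had 255 and the netrin receptor Unc5b had 241. The order depends on this scale. By mean count Slit2, with 25.43 kb of exon, was at 4418 and Slit3, with 6.067 kb, at 2435. In the P4 untreated libraries the order had a new head. Ntn4 moved from rank 9 to rank 1 with 2668 per kb, Efna1 followed with 2323, and Epha7 fell from rank 2 to rank 7 with 705. At the other end, 6 genes had a mean under 100 normalized counts over all libraries, namely Robo4, Epha8, Slit1, Sema7a, Dcc and Ntn5. Robo4, an endothelial receptor, ranged from 0 to 43 and Epha8 from 1 to 57 between single libraries, so their group differences rest on few reads.

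**Figure D1:**
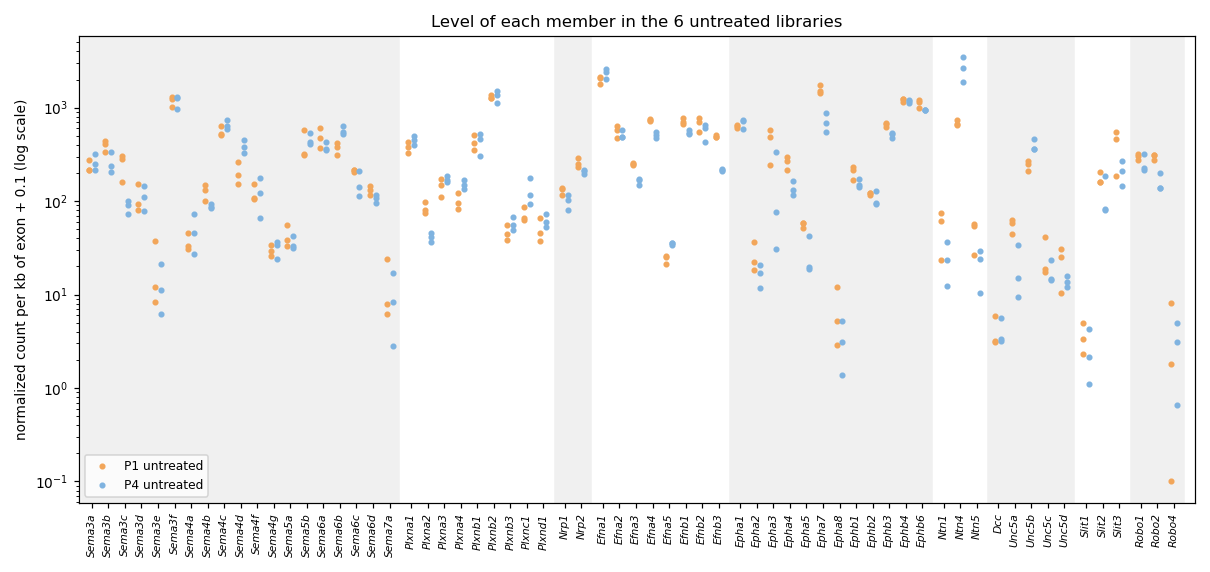
Normalized count per kb of exon plus 0.1 (vertical axis, log scale) of the 64 genes in the 3 P1 untreated (orange) and 3 P4 untreated (blue) libraries, 1 point a library, with grey and white bands for the families. Ntn4 stands apart among the netrins, and in the P4 untreated libraries its mean of 2668 per kb is above that of all other genes shown.

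More of these genes were called between ages than between treated and untreated libraries, and the same held over all genes. Between P1 and P4 untreated libraries, 11 of the 64 genes were higher at P1 (17.2%) and 6 were lower (9.38%), by an adjusted p below 0.05 together with a log2 fold change beyond 0.32 in size. Over all 18400 genes the same calls took 10.5% in the higher and 9.38% in the lower direction, so the share that was lower equalled the background. The median log2 fold change of the 64 genes was 0.28, against 0.02 over all genes. Groups did not overlap in 24 of the 64 genes (37.5%), against 41.3% of all genes. Without any adjustment, 17 were higher and 7 lower at a p under 0.05 (37.5%, against 35.5% of all genes). Levels were compared with limma on log2(normalized count + 1), and since these are bulk samples, fewer cells of a type and less RNA per cell cannot be told apart.

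Among the ligands, the ephrins were the family with most calls. Of the 8, 4 were higher at P1 (50%, beside 10.5% of all genes) and none was lower (beside 9.38%). Efnb3, a transmembrane ephrin, was at 1563, 1545 and 1615 normalized counts in the P1 untreated libraries and at 671, 708 and 693 in the P4 untreated ones. The values of each age lay within a narrow band, and the fall from P1 to P4 was 2.28-fold (log2 fold change 1.19, SE 0.18, adjusted p = 0.00173). Efna4, an ephrin held in the membrane by a lipid anchor, was at 1157, 1173 and 1206 against 882, 808 and 749. Its difference was smaller but as clear, 1.45-fold (log2 0.54, SE 0.09, adjusted p = 0.0025). Efna3 was at 598, 609 and 618 against 416, 410 and 359 (log2 0.62, adjusted p = 0.0316), and Efnb1 was at 2330, 2410 and 2673 against 1995, 1809 and 1866 (log2 0.39, adjusted p = 0.00916). All P1 untreated libraries were above all P4 untreated ones for the 4 ephrins. Groups did not overlap in either direction in 5 of the 8 ephrins (62.5%), against 41.3% of all genes. The call of Efna3 was lost without any one of the 6 untreated libraries (adjusted p = 0.0585 to 0.103). Efna1, Efna2, Efna5 and Efnb2 did not pass the test, with log2 fold changes of −0.22, 0.13, −0.55 and 0.26.

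Ntn4 had the largest change of any called gene of these families, and it went the other way. It was at 2479, 2781 and 2434 in the P1 untreated libraries and at 7093, 9900 and 12954 in the P4 untreated ones. The groups were far apart although the P4 untreated libraries spread widely, and the level was 3.78-fold lower at P1 (log2 −1.92, SE 0.18, adjusted p = 1.56e-04). The other netrins were scarce. Ntn1, the classical attractant of commissural axons, ranged from 145 to 471 at P1 and from 76 to 228 at P4, and Ntn5 from 59 to 126 and from 23 to 65. Both groups overlapped and neither gene passed the test (adjusted p = 0.208 and 0.299).

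Of the 19 semaphorins, 1 was higher (5.26%) and 2 were lower (10.5%) at P1, beside 10.5% and 9.38% of all genes. Sema3c, a secreted semaphorin known from neural crest and heart development, was at 2020, 1144 and 2152 in P1 and at 645, 522 and 712 in P4 untreated libraries. Even the lowest P1 library was above the highest P4 library, and the difference was 2.74-fold (log2 1.46, SE 0.29, adjusted p = 0.00669). Sema4d, the transmembrane ligand of Plxnb1, was at 1471, 2001 and 1181 against 2527, 2921 and 3441. Here the P4 libraries were the higher ones throughout (log2 −0.96, SE 0.19, adjusted p = 0.00713). Sema6b, a transmembrane ligand of A-class plexins, was at 1517, 1662 and 1235 against 2168, 2054 and 2534 (log2 −0.62, adjusted p = 0.0181). That call was lost without P1 or P4 untreated replicate 3 (adjusted p = 0.0688 and 0.0712). The most abundant semaphorin per kb, Sema3f, was at 6464, 5337 and 6797 at P1 and at 6552, 5045 and 6731 at P4, with a log2 fold change of 0.03 (SE 0.14). No Slit passed the test. The widest gap among them was that of Slit3, with 2819, 1137 and 3348 against 1649, 872 and 1277 (log2 0.85, adjusted p = 0.163), and these groups overlapped. Without P1 untreated replicate 2, the low one, Slit3 passed (log2 1.33, adjusted p = 0.0234), and so did Slit2 without P4 untreated replicate 1 (log2 1.10, adjusted p = 0.0303).

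**Figure D2:**
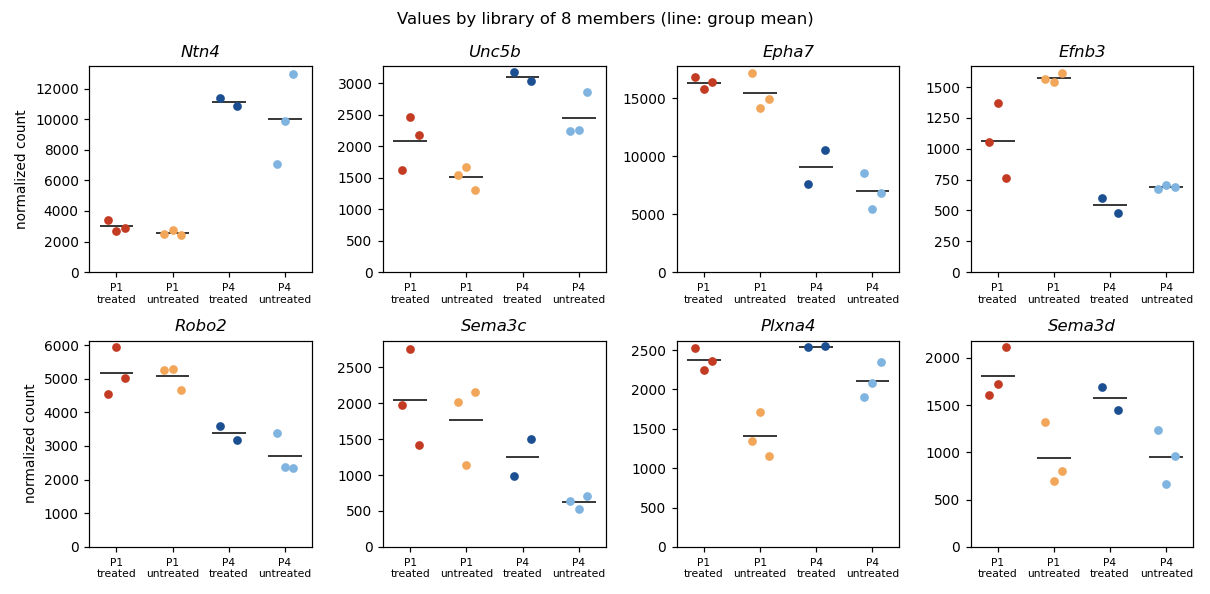
Normalized counts (vertical axes from 0) of 8 genes in each of the 11 libraries, by group, with a black line at the group mean. Ntn4 and Unc5b are higher in the P4 groups, Epha7, Efnb3, Robo2 and Sema3c are higher in the P1 untreated than in the P4 untreated group, and for Plxna4 the P1 untreated libraries, at 1154 to 1710, lie below all others.

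Among the receptors, 3 of 12 Eph receptors were higher at P1 (25%, beside 10.5% of all genes) and none was lower (beside 9.38%). Epha7 was at 17197, 14161 and 14886 in the P1 and at 8591, 5485 and 6818 in the P4 untreated libraries. The highest P4 library stood far below the lowest P1 library, a 2.24-fold difference (log2 1.17, SE 0.16, adjusted p = 0.00109). Epha4, which binds ephrins of both classes, was at 1741, 2379 and 2160 against 943, 1315 and 1063 (log2 0.92, SE 0.17, adjusted p = 0.00486). Ephb3 was at 4091, 4592 and 4448 against 3475, 3182 and 3525 (log2 0.37, SE 0.11, adjusted p = 0.0378). The call of Ephb3 was lost with the replicate number as a block (adjusted p = 0.07) and without any one of the 6 untreated libraries (adjusted p = 0.0546 to 0.104). The same block brought in the semaphorins Sema3b (log2 0.63, adjusted p = 0.0287) and Sema4b (log2 0.51, adjusted p = 0.0453), which raised the calls to 18. The receptors Epha3 and Epha5 did not pass and varied widely. Epha5 was at 973, 975 and 852 at P1 and at 313, 714 and 330 at P4 (log2 1.15, SE 0.51, adjusted p = 0.132). Its groups did not overlap, and it passed without P1 treated replicate 1 (SE 0.34, adjusted p = 0.0392), which alters only the shared spread, and with only the untreated groups in the fit. Epha3 was at 2116, 5024 and 4262 at P1 and at 266, 2941 and 667 at P4 (log2 2.14, SE 0.77, adjusted p = 0.0732). P4 untreated replicate 2 was high in both genes, and it was also high in the sum of 10 endothelial and pericyte markers, at 5183 against 1845 and 2324 in the other two libraries. The part of that sum in the result was not tested. Without this library the Epha3 difference passed the test (log2 3.08, SE 0.60, adjusted p = 0.00866).

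Plexins went both ways, with 1 of 9 higher (11.1%) and 2 lower (22.2%) at P1, beside 10.5% and 9.38% of all genes. Plxna2, a receptor for semaphorins of classes 3 and 6, was at 1268, 1696 and 1364 against 711, 619 and 783, which is 2.04-fold (log2 1.03, SE 0.20, adjusted p = 0.00515). Its relative Plxna4 was at 1349, 1710 and 1154 against 1906, 2079 and 2351 (log2 −0.60, SE 0.13, adjusted p = 0.0111), so these closely related receptors moved apart with age. Plxnc1, the receptor of Sema7a, was at 723, 545 and 520 against 1476, 781 and 959 (log2 −0.81, SE 0.23, adjusted p = 0.0298). Plxnc1 no longer passed without P1 untreated replicate 2 or 3 or P4 untreated replicate 1 or 3 (adjusted p = 0.061 to 0.0976). The abundant Plxnb2 was at 9896 to 10524 at P1 and at 8606 to 11635 at P4, with a log2 fold change of −0.01 (SE 0.11). Neither neuropilin passed the test, with log2 fold changes of 0.39 for Nrp1 and 0.29 for Nrp2.

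The netrin and Slit receptors gave 3 calls. Of 5 netrin receptors 1 was higher and 1 lower (20% each), and of 3 Robo receptors 1 was higher (33.3%). Over all genes the shares were 10.5% and 9.38%. Unc5b was lower at P1, at 1547, 1677 and 1300 against 2247, 2251 and 2866 (log2 −0.70, SE 0.16, adjusted p = 0.0128), the same direction as Ntn4. Unc5a was higher at P1, at 262, 183 and 243 against 140, 39 and 62 (log2 1.68, SE 0.49, adjusted p = 0.0332). These counts are low and the P4 libraries spread widely, which shows in the error. The call of Unc5a was lost without any one of the untreated libraries except P4 untreated replicate 1 (adjusted p = 0.052 to 0.101), and that of Unc5b without P1 or P4 untreated replicate 3 (adjusted p = 0.0522 and 0.0526). Robo2, a Slit receptor of neurons and of the developing kidney, was at 5268, 5295 and 4679 against 3387, 2361 and 2347, or 1.91-fold (log2 0.93, SE 0.15, adjusted p = 0.00212). Robo1 was at 5050, 5219 and 4600 against 3773, 3569 and 5268, groups that overlapped (log2 0.26, adjusted p = 0.205). Without P4 untreated replicate 3, the high one, Robo1 passed as well (log2 0.43, adjusted p = 0.0211). Dcc was at 77, 41 and 40 at P1 and at 73, 43 and 41 at P4, almost the same values.

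With log2(Xist + 1) in the fit, 7 of the 17 calls remained: Epha7, Efna4, Efnb3, Ntn4, Robo2, Sema3c and Sema4d. Other cell markers moved with age too. The sum of 11 supporting cell markers was 455266 to 525431 at P1 and 273446 to 386392 at P4 in untreated libraries, that of 11 hair cell markers was 32281 to 52070 and 59269 to 68011, and that of endothelial and pericyte markers was 6224 to 8547 and 1845 to 5183. Abundant members carry these sums, and the lists themselves were mixed. Of the supporting cell markers 2 were higher and 3 lower at P1 (median log2 −0.25), of the hair cell markers 1 was higher and 4 lower (median −0.28), and of the endothelial and pericyte markers none was called by limma (median −0.05). The part of these sums in the age differences was not tested.

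In the treated libraries, which share no library with the untreated ones, 6 of the 64 genes were higher at P1 (9.38%) and 2 were lower (3.12%). Over all genes the shares were 5.63% higher and 5.42% lower, and groups did not overlap in 24 of the 64 genes (37.5%) against 43.1% of all genes. The median log2 fold change was 0.18, against 0.005 over all genes. The 8 calls were Ntn4, Efna4, Epha7, Efnb1, Efnb3, Plxnc1, Robo2 and Plxna2. All 8 were among the 17 genes called between untreated libraries (100% of the 8 and 47.1% of the 17) and had the same direction there, and all 17 had the same sign in both. The same shares over all genes were not computed, so these counts are not set apart from the background. Ntn4 was at 3423, 2722 and 2902 in P1 treated and at 11370 and 10886 in P4 treated libraries. This 3.71-fold gap (log2 −1.89, SE 0.20, adjusted p = 8.63e-04) was close in size to that of the untreated libraries. Efnb3 was at 1054, 1369 and 761 against 601 and 480 (log2 0.94, adjusted p = 0.0173), and Epha7 was at 16836, 15801 and 16361 against 7560 and 10494 (log2 0.87, adjusted p = 0.0147). With 2 P4 treated libraries these calls were fragile. Without P4 treated replicate 1 the calls of Epha7, Efna4, Efnb1, Efnb3, Plxnc1, Robo2 and Plxna2 were lost, Efna3 was gained (log2 0.94, adjusted p = 0.0297) and 2 calls were left. Without P4 treated replicate 3, Epha7 and Ntn4 were left. Robo2 and Plxna2 were also lost without P1 treated replicate 2 or 3 and Plxnc1 without P1 treated replicate 1 or 3 (adjusted p = 0.0549 to 0.265 over all these cases), which took the calls to 5 without P1 treated replicate 3. No call was left with Xist in the fit, where all P1 treated libraries were low and both P4 treated ones high in Xist.

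**Figure D3:**
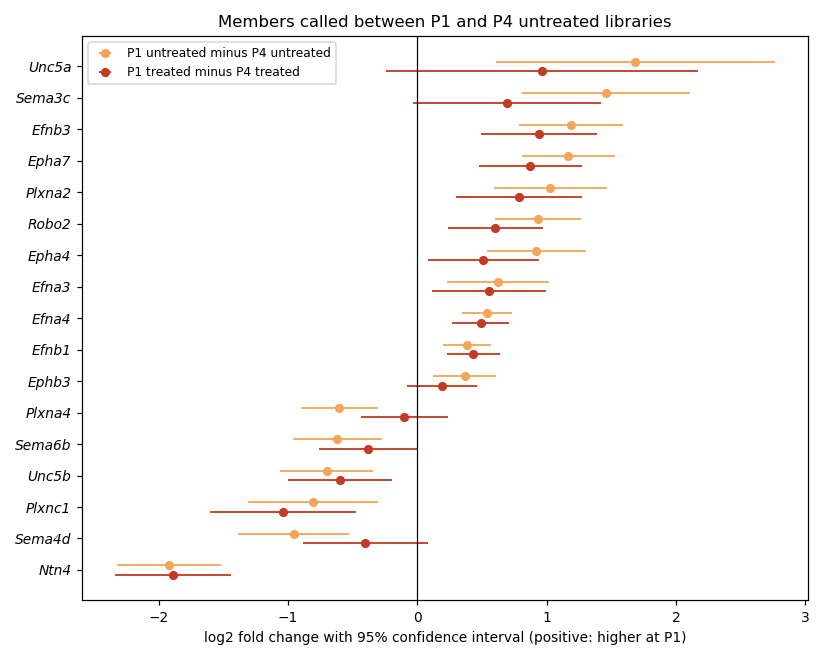
Log2 fold change of P1 against P4 with its 95% confidence interval (horizontal axis, positive where higher at P1) for the 17 genes called between untreated libraries, in untreated (orange) and treated (red) libraries. All 17 lie on the same side of 0 in both, with Ntn4 at −1.92 and −1.89, and the treated interval of Plxna4 spans 0.

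Few of these genes passed the test between treated and untreated libraries. Between P1 treated and P1 untreated libraries, 1 of the 64 genes was higher (1.56%, background 0.261%) and none was lower (background 0.0924%). Before adjustment, p was below 0.05 for 8 that were higher and 7 that were lower (23.4%, against 12.2% of all genes). The groups did not overlap in 16 of the 64 genes (25%), against 15.3% of all genes, and the median log2 fold change was 0.09 against 0.004 over all genes. The called gene was Plxna4, a receptor for class 3 and class 6 semaphorins, at chr6:32144268-32588192 on the minus strand in GENCODE M21 on GRCm38. It was at 2521, 2248 and 2356 in the P1 treated and at 1349, 1710 and 1154 in the P1 untreated libraries. All treated libraries were above all untreated ones, 1.71-fold on average (log2 0.78, SE 0.13, adjusted p = 0.0489). The call is marginal. It was lost in 15 of the 23 alternatives run, among them those with Xist in the fit (adjusted p = 0.422) and those without P1 treated replicate 2 or 3 or P1 untreated replicate 1 or 3 (adjusted p = 0.0818 to 0.168). Leaving out any one of the P4 libraries, which alters only the shared spread, also ended the call. Over 16 of these alternatives, those on P4 libraries and thresholds aside, its log2 fold change was 0.64 to 0.93.

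After Plxna4, the smallest p-values were those of a semaphorin, an Eph receptor and a pair of ephrins, none of which passed the adjusted test. Sema3d, a secreted semaphorin, was at 1604, 1718 and 2110 in the P1 treated and at 1322, 695 and 805 in the P1 untreated libraries (log2 0.99, SE 0.26, adjusted p = 0.163). The groups did not overlap, but P1 untreated replicate 1 was close to the treated libraries. Efnb3 was at 1054, 1369 and 761 against 1563, 1545 and 1615 (log2 −0.61, SE 0.18, adjusted p = 0.213), and Efna2 was at 943, 892 and 873 against 1019, 1222 and 1345 (log2 −0.40, SE 0.12, adjusted p = 0.212). Both ephrins were lower in all treated than in all untreated libraries. Epha1 was at 2800, 3515 and 3197 against 2471, 2357 and 2564 (log2 0.36, adjusted p = 0.225), and Epha4 was at 1647, 1609 and 1170 against 1741, 2379 and 2160 (log2 −0.51, adjusted p = 0.268). These are values that did not pass the test, in either direction.

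Epha5 and Epha3 had wide differences by treatment at P1 and a wide spread between libraries, and neither passed the test. Epha5 was at 663, 247 and 132 in P1 treated and at 973, 975 and 852 in P1 untreated libraries (log2 −1.74, SE 0.51, adjusted p = 0.202). Epha3 was at 1748, 806 and 420 against 2116, 5024 and 4262 (log2 −2.08, SE 0.77, adjusted p = 0.311). P1 treated replicate 1 was the highest treated library for both. The same library had a sum of 10 mesenchymal markers of 108344, against 38960 and 51525 in the other P1 treated libraries and 79199 to 97215 in the untreated ones. Without it, Epha5 passed the test (log2 −2.36, adjusted p = 0.0193), as did Plxnd1, a receptor known from blood vessels (log2 −1.22, adjusted p = 0.0478), and the calls rose from 1 to 3. Endothelial and pericyte markers summed to 3490, 2208 and 1926 in P1 treated and to 6224, 8071 and 8547 in P1 untreated libraries. Their groups did not overlap, but no marker of the list was called by limma and their median log2 fold change was −0.10. The sum of 8 immune markers did not overlap either, at 2373, 1124 and 1198 against 3618, 3122 and 2653 (median −1.18, none called). That of 10 Schwann cell and glia markers went the other way without overlap, at 35546, 34729 and 37082 against 30264, 25748 and 31057 (median 0.515, none called). Of the 11 supporting cell markers, 3 were higher and 1 was lower in the P1 treated libraries (median 0.28). The part of any of these sums in these values was not tested.

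**Figure D4:**
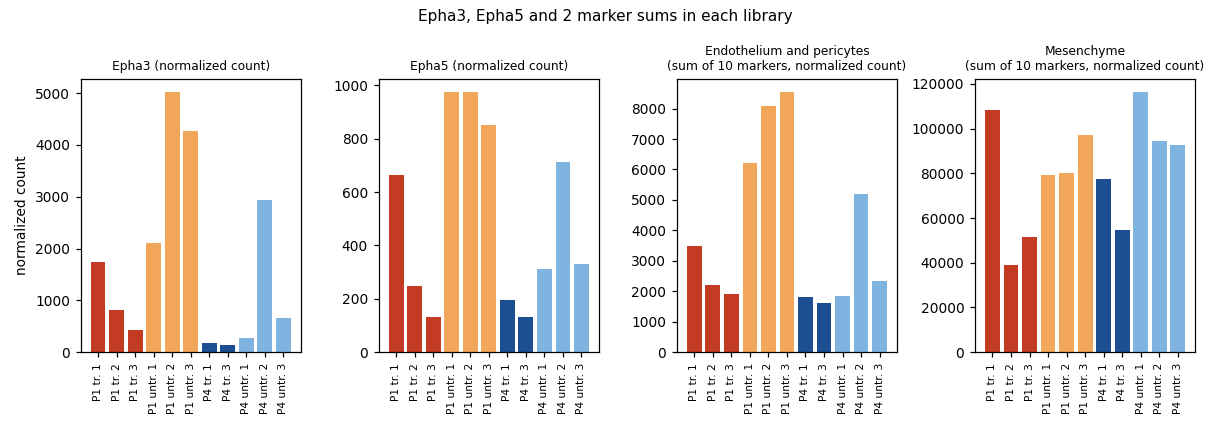
Normalized counts of Epha3 and Epha5 and the sums of 10 endothelial and pericyte markers and of 10 mesenchymal markers in each library (bars from 0, coloured by group). P1 treated replicate 1 is the highest P1 treated library in all 4 panels, and P4 untreated replicate 2 the highest P4 library in all but the mesenchymal panel.

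Between P4 treated and P4 untreated libraries no gene of the 64 was called in either direction by limma (background 0.0326% higher and 0.0217% lower), while the unadjusted p was below 0.05 for 7 that were higher and 3 that were lower (15.6%, against 11.6% of all genes). The groups did not overlap in 25 of the 64 genes (39.1%), against 33.5% of all genes. The treated group has 2 libraries, and fewer libraries leave less room to overlap, so these shares are not comparable with those at P1. Other reasons for the high share over all genes were not tested. The median log2 fold change was 0.12, against 0.002 over all genes. Robo1 was at 6114 and 5842 in the treated and at 3773, 3569 and 5268 in the untreated libraries (log2 0.53, SE 0.15, adjusted p = 0.285). Sema3a, the classical collapse factor of sensory growth cones, was at 5995 and 6037 against 4417, 2952 and 3428 (log2 0.76, SE 0.23, adjusted p = 0.285). Sema3c was at 991 and 1504 against 645, 522 and 712 (log2 0.97, SE 0.33, adjusted p = 0.32). For all 3 genes both treated libraries were above the untreated ones without passing the test. Efnb2, a transmembrane ephrin, was at 5061 and 6278 against 4142, 2940 and 4515 (log2 0.57, SE 0.21, adjusted p = 0.341). Epha3 was at 170 and 133 against 266, 2941 and 667 (log2 −2.41, SE 0.86, adjusted p = 0.335), a difference that P4 untreated replicate 2 enlarged. Without that library the log2 fold change was −1.48. The sum of mesenchymal markers was 77396 and 54530 in the treated and 92851 to 116424 in the untreated libraries, with a median log2 fold change of −0.91 over the 10 markers and no call by limma. That of 12 neuronal markers was 13624 and 14459 against 13378 to 19291, with a median of −1.04 over the 11 tested and no call. Endothelial and pericyte markers summed to 1798 and 1623 against 1845, 5183 and 2324, without overlap (median −0.437, none called). The sum of Schwann cell and glia markers overlapped, at 32005 and 34591 against 25187 to 37563 (median −0.687, none called). The part of these sums in the values was not tested, and at P4 treatment and sex cannot be told apart.

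The effects of treatment at P1 and at P4, which share no library, had the same sign for 52 of the 64 genes (81.2%), against 60.1% of all genes. The unadjusted p was below 0.05 for 15 genes at P1 and for 10 at P4, and 4 were common to both ages with the same sign (6.25%, against 2.65% of all genes): Epha3 and Epha5 were lower and Sema3a and Sema3d higher in the treated libraries. Sema3d was at 1693 and 1451 in P4 treated and at 1238, 669 and 959 in P4 untreated libraries (log2 0.76, adjusted p = 0.362). Sema3a was at 3228, 5465 and 5128 in P1 treated and at 3845, 2996 and 2970 in P1 untreated libraries (log2 0.47, adjusted p = 0.395), and here the groups overlapped. None of the 4 passed the adjusted test at either age. The difference between the effects at the 2 ages was the interaction term of the fit, and no gene of the 64 was called in either direction by limma (background 0% higher and 0% lower). Without adjustment 1 gene had a p under 0.05 (1.56%, against 5.8% of all genes), Plxna4, whose effect was larger at P1 by a log2 value of 0.50 (SE 0.20, adjusted p = 0.82). At P4 it was at 2538 and 2552 in treated and at 1906, 2079 and 2351 in untreated libraries (log2 0.27, adjusted p = 0.509). The P1 treated libraries, at 2248 to 2521, were thus within or above the P4 untreated range. The next genes by p-value of the interaction were Sema4d, Nrp2, Efna2 and Sema3c, with log2 values of 0.55, −0.51, −0.31 and −0.76 and adjusted p-values of 0.862 to 0.863.

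**Figure D5:**
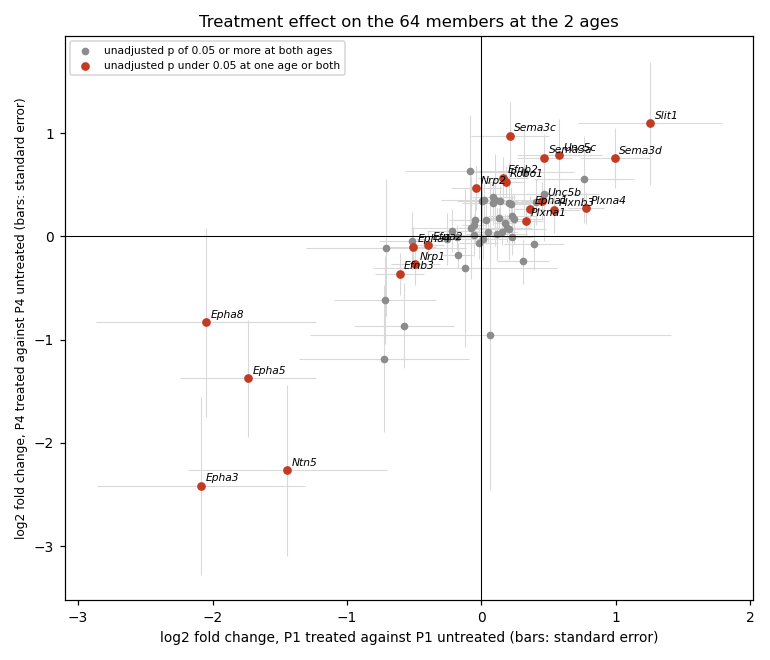
Log2 fold change of treated against untreated libraries at P1 (horizontal axis) and at P4 (vertical axis) for the 64 genes, with bars of 1 standard error, in red where the unadjusted p was under 0.05 at one age or both. Plxna4, at 0.78 and 0.27, was the one gene called at P1, and Epha3 and Epha5 lie far below 0 at both ages with wide errors.

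The rest of the pathway was followed in 69 co-receptors and intracellular partners, such as collapsin response mediators and actin-binding proteins. Between P1 and P4 untreated libraries 6 were higher (8.7%) and 14 lower (20.3%), with a median log2 fold change of −0.05, beside 10.5% and 9.38% of all genes. Flrt3, a membrane protein that binds Unc5 and Robo receptors, was at 2126, 2537 and 2229 at P1 and at 364, 646 and 346 at P4, which is 5.28-fold (log2 2.40, SE 0.22, adjusted p = 1.52e-04). The related Flrt2 was higher as well (log2 1.46, adjusted p = 0.0136), although not without P4 untreated replicate 1 or 3 (adjusted p = 0.0504 and 0.0533) or with Xist in the fit (adjusted p = 0.0958). Rnd1, a protein that binds plexins, was at 296, 593 and 319 against 1318, 1813 and 1920 (log2 −2.12, SE 0.25, adjusted p = 4.98e-04). Kalrn, an exchange factor that activates Rac, was at 510, 557 and 254 against 1662, 1610 and 2062 (log2 −2.08, SE 0.30, adjusted p = 0.00119). Groups of these genes were far apart. Other partners that were lower at P1 included Chn1, which acts below Epha4 (log2 −0.76), Srgap3, a Slit and Robo partner (log2 −1.09), and Mical1, an actin-oxidizing enzyme used by plexins (log2 −0.71). In the treated libraries 2 partners were higher (2.9%) and 10 lower (14.5%) at P1, beside 5.63% and 5.42% of all genes.

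For treatment, 1 of the 69 partners was lower at P1 (1.45%, beside 0.0924% of all genes), Dpysl3, a collapsin response mediator protein of growing neurites. It was at 3119, 3036 and 2211 in P1 treated and at 4951, 6665 and 5928 in P1 untreated libraries. All treated libraries were lower (log2 −1.07, SE 0.17, adjusted p = 0.0356). The call was lost without any one of P1 treated replicates 2 and 3, the P1 untreated libraries, the P4 treated libraries and P4 untreated replicate 3 (adjusted p = 0.0512 to 0.146, log2 −1.19 to −0.92), and with Xist in the fit (adjusted p = 0.515). The sum of 12 neuronal markers was 13656 to 16860 in the treated and 16145 to 22532 in the untreated libraries at P1, and its part in this value was not tested. No partner was called at P4 or in the interaction by limma. At P4 the unadjusted p was below 0.05 for 6 higher and 2 lower of the 69, beside 11.6% of all genes. In the interaction it was below 0.05 for 3 higher and 1 lower of the 69, beside 5.8% of all genes.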

How the data were processed

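Cochlear RNA of 12 pups had been amplified with a SMARTer kit and sequenced, and 11 of these libraries were analysed here. The submitters' processing notes name STAR 2.5.2b, featureCounts and DESeq2 with mm10, and the paper adds Sailfish and tximport. The authors deposited a score per gene, namely counts that were divided by the size factor of each library and then rounded. Since these are no longer counts, tests for raw counts were not used. Of 27755 entries, 626 lacked a symbol and 1 that repeated an ID was dropped.

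Values were compared as log2(value + 1) in R 4.3.3 with limma 3.58.1, with 4 group means, a spread shared by the 11 libraries and eBayes with trend, over the 18400 genes with a mean of at least 10. P-values were adjusted over all of them by the method of Benjamini and Hochberg, and calls needed an adjusted p below 0.05 with more than 1.25-fold change (the paper's stricter thresholds). A fold change on this scale understates that of low genes. Levels per kb used the union of exons in GENCODE M21. The number of libraries and the rounding limit the precision. Scripts were tested on simulated data.

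Samples were grouped by their labels. Any member may be named. The rule gives full statistics to those called and the 5 with the smallest p in each treatment comparison and in the interaction. It also gives them to the member with the highest mean count per family. Some of these are given here only in part, such as Slit2 and Nrp2. Others with statistics were chosen after their values were seen. Members, partners and markers were chosen with earlier results of these data known. Residuals of same-numbered P1 and P4 untreated libraries had correlations of 0.135, 0.136 and 0.115. Those of libraries with different numbers were not computed, so a pairing was not established. For the untreated ages the blocked fit is given where it changes a member's call. For the other same-numbered pairs the correlations were −0.061 to 0.026.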

Additional observations from a re-analysis of the deposited data

How the results depend on the processing

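Between untreated ages, the 17 calls became 8 with Xist as a covariate and 12 to 19 with 1 library left out. Epha7, Efna4, Efnb3, Ntn4, Robo2, Sema3c and Sema4d were called in all 16 alternatives run. Between treated ages, the 8 calls became 5 without the trend of the spread, 3 with only the groups compared, 0 with Xist and 2 to 9 with 1 library left out. They were 2 without P4 treated replicate 1 or 3 and 5 without P1 treated replicate 3. In the P1 comparison of treatment, the 1 call became 0 with a pseudocount of 0.5, with no filter, without the trend, with only the groups compared, with Xist and with the replicate block, and 0 to 3 with 1 library left out. It was 0 without any of P1 treated replicates 2 and 3, P1 untreated replicates 1 and 3 and each P4 library, and 3 without P1 treated replicate 1. The P4 comparison of treatment and the interaction kept 0 calls of the 64 genes in all alternatives run. The interaction of Efna2 turned from −0.31 to 0.18 when Xist entered as a covariate. In the replicate block there were 18 calls between untreated and 7 between treated ages. The blocked adjusted p of Dpysl3 in the P1 comparison of treatment was 0.0527. The replicate number entered as a factor over all 11 libraries, so the same block acted on every comparison. The labels give nothing that same-numbered libraries share beyond that number. The causes were not tested, apart from the smaller number of libraries where 1 is left out. The depth before normalization is not given in the table, so no counting interval is given.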
